A study of Mus musculus with 20 samples.

Results

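The 10 genes described here make, regulate and break down polyamines: Odc1, Oaz1, Oaz2, Azin1, Amd1, Srm, Sms, Sat1, Smox and Paox. They were chosen by name, as the enzymes and antizyme proteins of the pathway, out of 39179 genes with a read count in these libraries. All 10 were found by their Ensembl identifier, and all 10 were among the 12671 genes with enough counts to be tested. Their levels were compared in 20 RNA sequencing libraries from immortalised mouse kidney epithelial cells of strain C57BL/6J, in 4 groups of 5 libraries that differ in Fh1, the gene for the mitochondrial enzyme fumarate hydratase.

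The group Fh1_fl_fl carries the genotype label Fh1 wt, and its name gives the floxed Fh1 allele. The groups clone1 and clone19 are labelled Fh1 deletion, and each is 1 clonal line, so a difference between the clones and the other groups could also belong to the clone. Rec is labelled as having wild-type Fh1 re-expressed. The labels do not say that Rec holds more than 1 line. A difference between Rec and the other groups therefore cannot be told apart from a trait of its line. All groups were grown in DMEM containing fetal bovine serum and uridine. The labels leave out from which clone Rec was made, which part of Fh1 was deleted and how it was put back. The labels do not call the 5 libraries of a group separate cultures, so p-values measure the spread between these libraries, which may be technical.

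Polyamines are small, positively charged molecules that bind RNA and DNA and are needed for translation and growth. Ornithine decarboxylase (Odc1) makes putrescine from ornithine, S-adenosylmethionine decarboxylase (Amd1) supplies the aminopropyl groups, and spermidine synthase (Srm) and spermine synthase (Sms) add them in turn. Antizymes (Oaz1, Oaz2) bind ornithine decarboxylase and send it to the proteasome, the antizyme inhibitor (Azin1) occupies antizyme in its place, and an acetyltransferase (Sat1) and oxidases (Smox, Paox) lead back from spermine and spermidine. In mouse kidney, Odc1 is known for its strong induction by androgens.

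Odc1, Oaz1, Amd1 and Srm were higher in all 5 Rec libraries than in any of the other 15, and Sat1 and Smox were lower in all 5 Rec libraries than in any of the other 15. Over all tested genes, 11.8% stood above in this way and 10.3% below, so 4 of 10 and 2 of 10 are set beside those shares as a description. Genes are called changed at an adjusted p under 0.05 (Benjamini-Hochberg, over all 12671 tested genes) in edgeR's quasi-likelihood test. By that call, the deletion clones had higher Odc1 and Srm and lower Oaz1, Oaz2, Azin1 and Amd1 than Fh1_fl_fl. For Oaz1 and Amd1, Rec lay on the other side of Fh1_fl_fl from the clones, while for Odc1 and Srm it lay beyond the clones on the same side. RNA was taken from whole cultures, in which fewer cells with a transcript and less transcript per cell cannot be told apart.

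**Figure D1:**
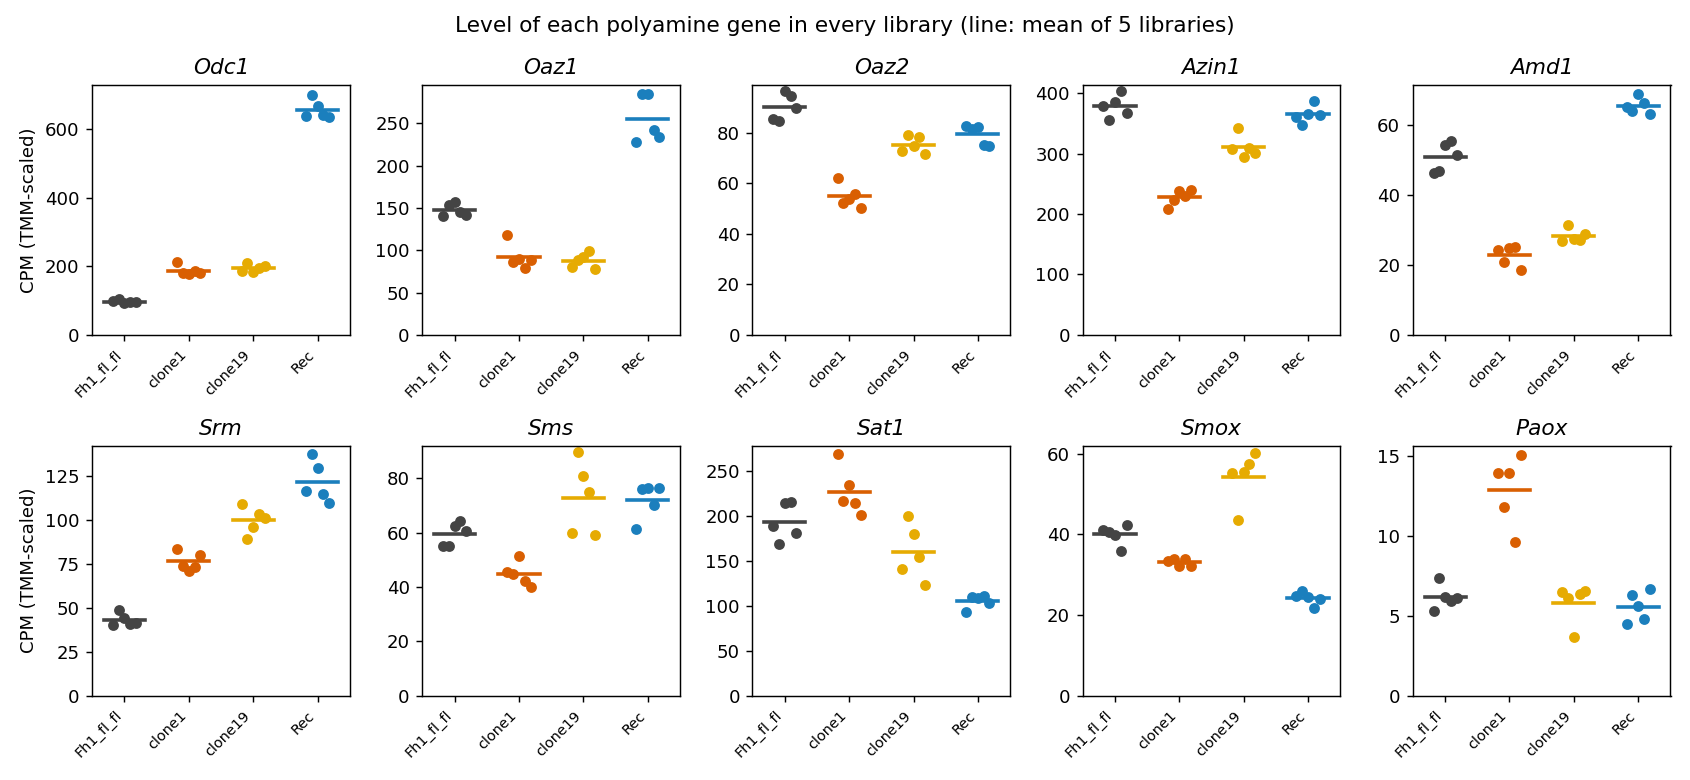
Level of each of the 10 polyamine genes in every library, in CPM (counts relative to the library size, scaled by the trimmed mean of M-values, TMM) (y axis, from 0; each panel has its own scale). Points are the 5 libraries of a group and lines are group means; the Rec points for Odc1 lie at 636 to 698 CPM and no other library exceeds 211 CPM.

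The libraries held between 5988447 and 18972176 gene counts. One library, clone19 replicate 3, stood apart. In this library 8.20% of gene counts were on Gm42418, and 40.3% of all tallied alignments, unassigned ones included, were not unique. Without this library, none of the 30 fold changes of polyamine genes that involve clone19 changed its call, and the largest shift was 0.11 on the log2 scale, for Paox against Fh1_fl_fl. The targeted gene, Fh1, had a mean of 92.3 ± 6.16 CPM in Fh1_fl_fl, with clone1 at 112 ± 5.93, clone19 at 84.7 ± 7.31 and Rec at 71.3 ± 7.08 (SD, n = 5). A whole-gene count does not check the labels when the deleted part is not given, and the group labelled as re-expressing Fh1 had the lowest level, so the directions below rest on the labels alone. The 5 epithelial markers listed (Cdh1, Epcam, Krt8, Krt18, Krt19) were present in every group, with summed levels of 2285 to 2668 CPM in Fh1_fl_fl, with clone1 at 1887 to 2412, clone19 at 1500 to 1667 and Rec at 3410 to 3878. These markers did not move together: from Fh1_fl_fl to clone1, mean Epcam went from 439 to 86.6 CPM and Cdh1 from 426 to 168 CPM, while Krt19 went from 348 to 638 CPM. The kidney tubule markers Lrp2, Cubn and Aqp1 summed to 59.4 to 78.7 CPM in Fh1_fl_fl and 156 to 233 CPM in clone1. Their sum was 94.1 to 153 CPM in clone19 and 41.7 to 55.3 CPM in Rec, and Slc34a1 had 0 counts in all 20 libraries. The tubule markers also moved apart. Mean Cubn went from 16.5 CPM in Fh1_fl_fl to 33.2 CPM in Rec, while Lrp2 went from 35.2 to 12.6 CPM and Aqp1 was also lower. Mean Aqp1 was 81.6 CPM in clone1 and 18.8 CPM in clone19. Among 6 mesenchymal markers (Vim, Zeb1, Zeb2, Col1a1, Col1a2, Pdgfrb) the summed level was 12.6 to 17.6 CPM in Fh1_fl_fl and 656 to 725 in clone1. It was 132 to 149 CPM in clone19 and 7.56 to 12.98 in Rec, and Pdgfrb was at 0 counts throughout. Vim alone had a mean of 566 CPM in clone1. From Fh1_fl_fl to Rec, mean Zeb2 went from 2.82 to 6.94 CPM, while the means of Vim, Zeb1, Col1a1 and Col1a2 were lower in Rec. The endothelial list (Pecam1, Cdh5, Kdr, Tie1) summed to at most 9.79 CPM and the leukocyte list (Ptprc, Cd68, Adgre1, Cd3e) to at most 20.6 CPM in any library. These marker sums move with the groups, and their part in the polyamine results was not tested.

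Odc1 (ENSMUSG00000011179, chr12:17544794-17551505, plus strand, GRCm38) is the first and usually rate-limiting enzyme of the pathway. Its level was 98.4, 104, 92.7, 94.9 and 96.8 CPM in the Fh1_fl_fl libraries, and 211, 179.6, 176, 185 and 180.03 CPM in clone1. In clone19 it was 187, 208, 184, 196 and 201 CPM, and in Rec 638, 698, 667, 640.3 and 636 CPM. The libraries of Fh1_fl_fl, the 2 clones together and Rec formed steps that did not overlap, and the clones overlapped each other. The group means were 97.3 ± 4.15, 186 ± 14.2, 195 ± 10.1 and 656 ± 26.9 CPM (SD, n = 5), in the order Fh1_fl_fl, clone1, clone19, Rec. In edgeR's quasi-likelihood test, Odc1 rose by 0.94 (SE 0.06, adjusted p = 2.5e-14) in clone1 and by 1.01 (SE 0.06, adjusted p = 1.1e-14) in clone19 against Fh1_fl_fl, on the log2 scale. Rec exceeded Fh1_fl_fl by 2.75 (SE 0.06, adjusted p = 2.6e-23), which is 6.74-fold, and exceeded clone1 3.52-fold and clone19 3.36-fold. Between the clones the difference was -0.07 (SE 0.06, adjusted p = 0.294). The range of its group means, 2.75 on the log2 scale, was wider than in 89.9% of tested genes, for which the median range was 0.97.

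The stretch upstream of the Odc1 start, 171 bases at chr12:17544623-17544793 on the plus strand (RefSeq promoter table, GRCm38.p6), is shown because Odc1 had the widest range among the 10 genes. Capitals mark the GC box GGGCGG, read on either strand, a sequence known for binding Sp-family factors.
Odc1: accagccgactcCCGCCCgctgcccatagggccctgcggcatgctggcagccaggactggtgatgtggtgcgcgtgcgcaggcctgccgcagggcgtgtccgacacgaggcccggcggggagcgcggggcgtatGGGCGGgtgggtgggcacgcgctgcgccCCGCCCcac
The stretch holds 3 GC boxes and is 77.2% G or C. It is part of a longer window, from 250 bases before to 50 bases after the RefSeq start, that holds 4 GC boxes. Of 32851 windows of that length, 35.7% hold at least 1 GC box.

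Oaz1 (ENSMUSG00000035242, chr10:80826656-80829290, plus strand) and Oaz2 (ENSMUSG00000040652, chr9:65668001-65690300, plus strand) encode antizymes 1 and 2. Full-length antizyme is made when the ribosome slips into another reading frame at a stop codon within the coding exons, a step that polyamines promote. The sites are shown because they are the feature through which polyamines are known to act on these messages. They were read from GENCODE M21 transcripts on GRCm38, and capitals mark the last codon before the stop, the stop codon and the next base, at chr10:80828292-80828298 for Oaz1 and chr9:65686269-65686275 for Oaz2.
Oaz1: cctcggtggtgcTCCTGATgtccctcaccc
Oaz2: cctctgtggtgcTCCTGATgcccctcaccc
The 7 capital bases are the same in both genes. An RNA count does not show how often the shift took place.

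Oaz1 was at 141, 153, 157, 145 and 142 CPM in Fh1_fl_fl and at 118, 86.2, 89.5, 79.0 and 88.8 CPM in clone1. It was at 80.2, 88.1, 91.8, 98.8 and 77.9 CPM in clone19, and at 228, 285, 284, 242 and 234 CPM in Rec. The 10 libraries of the clones were all lower than those of Fh1_fl_fl, and the Rec libraries were all higher. Against Fh1_fl_fl, Oaz1 fell by 0.68 (SE 0.09, adjusted p = 9.9e-08) in clone1 and by 0.76 (SE 0.09, adjusted p = 2.3e-08) in clone19, and rose by 0.79 (SE 0.09, adjusted p = 6.6e-09) in Rec, on the log2 scale. Rec was 2.75-fold above clone1 and 2.91-fold above clone19. The clones differed by 0.08 (SE 0.09, adjusted p = 0.451).

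Oaz2 showed another order. Its mean was 90.3 ± 5.38 CPM in Fh1_fl_fl, with clone1 at 54.9 ± 4.48, clone19 at 75.3 ± 3.30 and Rec at 79.4 ± 3.97 (SD, n = 5). The Fh1_fl_fl libraries, at 84.7 to 96.7 CPM, lay above all others and the clone1 libraries, at 50.4 to 62.1 CPM, below all others. Oaz2 fell by 0.72 (SE 0.06, adjusted p = 4.4e-11) in clone1, by 0.26 (SE 0.06, adjusted p = 0.000485) in clone19 and by 0.19 (SE 0.06, adjusted p = 0.0079) in Rec, all on the log2 scale against Fh1_fl_fl. Rec and clone19 overlapped, with a difference of 0.07 (SE 0.06, adjusted p = 0.283).

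Azin1 (ENSMUSG00000037458, chr15:38487427-38519266, minus strand) encodes antizyme inhibitor, a relative of ornithine decarboxylase without its activity. Its mean was 378 ± 18.2 CPM in Fh1_fl_fl, with clone1 at 228 ± 13.1, clone19 at 311 ± 18.5 and Rec at 365 ± 14.4 (SD, n = 5). Azin1 fell by 0.73 (SE 0.05, adjusted p = 2.2e-12) in clone1 and by 0.28 (SE 0.05, adjusted p = 4.6e-05) in clone19 on the log2 scale. Rec libraries, at 348 to 388 CPM, overlapped those of Fh1_fl_fl, at 355 to 404 CPM, with a difference of -0.05 (SE 0.05, adjusted p = 0.404). Scaled to the length of the gene's exons, the level in Fh1_fl_fl was 60.5 ± 2.92 CPM per kb for Azin1, 57.7 ± 2.80 for Oaz1, 30.2 ± 1.80 for Oaz2 and 28.6 ± 1.22 for Odc1. In Rec the same quantity was 58.4 ± 2.30 for Azin1, 99.5 ± 10.9 for Oaz1, 26.6 ± 1.33 for Oaz2 and 193 ± 7.89 for Odc1. The length covers every annotated exon: 2558 bases for Oaz1, whose longest coding transcript has 1071, and 6256 for Azin1, whose longest has 4871. Stretches shared with other genes make up 52.2% of that transcript for Oaz1 and 6.43% for Azin1. These levels therefore do not rank the genes by abundance.

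Within a library, a ratio of 2 genes' counts does not depend on how libraries are scaled. The ratio of Odc1 counts to the summed counts of Oaz1 and Oaz2 was 0.434, 0.436, 0.365, 0.395 and 0.418 in the Fh1_fl_fl libraries, and 2.06, 1.90, 1.82, 2.02 and 2.06 in Rec. Clone1 spanned 1.18 to 1.37 and clone19 spanned 1.11 to 1.34. The 3 levels (Fh1_fl_fl, both clones, Rec) did not overlap, although Oaz1 itself was lowest in the clones and highest in Rec. The ratio of Odc1 to Azin1 counts had means of 0.258 ± 0.022 in Fh1_fl_fl, with clone1 at 0.823 ± 0.112, clone19 at 0.628 ± 0.025 and Rec at 1.80 ± 0.13 (SD, n = 5), and here the 4 groups did not overlap. These are ratios of RNA counts, not of proteins, and are given without a test.

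**Figure D2:**
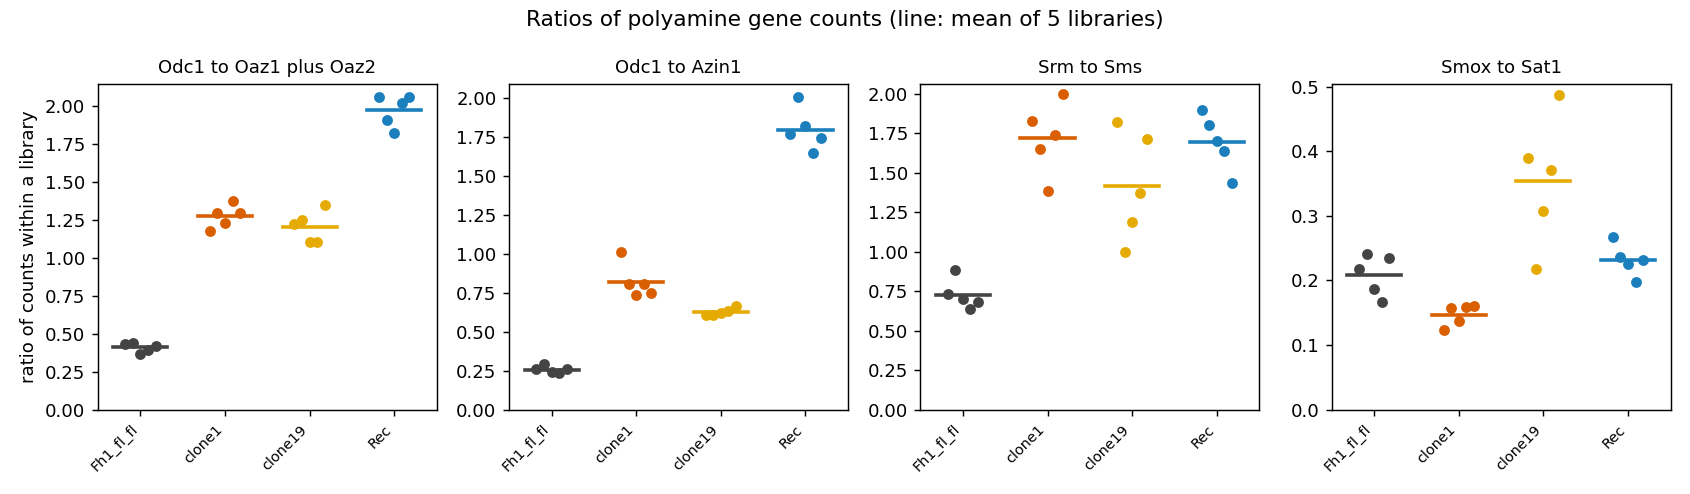
Ratio of the read counts of 2 polyamine genes, or of Odc1 to the sum of Oaz1 and Oaz2, within each library (y axis, no unit, from 0). Points are the 5 libraries of a group and lines are group means; the ratio of Odc1 to both antizymes is lowest in Fh1_fl_fl (0.365 to 0.436) and highest in Rec (1.82 to 2.06).

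Amd1 (ENSMUSG00000075232, chr10:40287458-40302186, minus strand) makes decarboxylated S-adenosylmethionine, the donor of aminopropyl groups. Its message begins with a very short upstream reading frame, known for slowing translation of the enzyme when polyamines are abundant. That frame is shown with the one in Amd2, a copy of Amd1 without introns, because the 2 sequences are the same and reads from such stretches cannot be given to 1 gene. Both were read from GENCODE M21 transcripts, capitals mark the start and stop codons, and the positions are chr10:40302155-40302175 and chr10:35711860-35711880, both on the minus strand of GRCm38.
Amd1: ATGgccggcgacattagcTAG
Amd2: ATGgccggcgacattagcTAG
Of the 50-base stretches in the longest coding transcript of Amd1, 87.6% also occur in transcripts of another gene, Amd2 and Amd pseudogenes among them. The Amd1 count therefore rests on a small part of the message if reads were of about that length, and the labels do not give the read length.

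Amd1 was at 46.3, 46.9, 54.3, 55.5 and 51.5 CPM in Fh1_fl_fl and at 24.2, 20.8, 24.8, 25.2 and 18.6 CPM in clone1. It was at 26.8, 31.4, 27.4, 27.0 and 28.8 CPM in clone19 and at 65.1, 64.1, 69.0, 66.2 and 63.2 CPM in Rec. No group overlapped another, in the order clone1, clone19, Fh1_fl_fl, Rec. Amd1 fell by 1.17 (SE 0.08, adjusted p = 2.3e-13) in clone1 and by 0.84 (SE 0.08, adjusted p = 2.7e-10) in clone19 and rose by 0.36 (SE 0.07, adjusted p = 6.8e-05) in Rec, each on the log2 scale against Fh1_fl_fl. Rec was 2.90-fold above clone1 and 2.31-fold above clone19. Amd2 itself had at most 20 counts in any library, and with Amd1 and Amd2 summed the log2 changes against Fh1_fl_fl were -1.18, -0.85 and 0.37 for clone1, clone19 and Rec.

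The stretches upstream of Oaz1 and Amd1 follow, since these genes had the next widest ranges, 1.54 and 1.53 on the log2 scale, and were both low in the clones and high in Rec. They span chr10:80826406-80826655 on the plus strand and chr10:40302189-40302438 on the minus strand (RefSeq promoter table, GRCm38.p6), with GC boxes in capitals.
Oaz1: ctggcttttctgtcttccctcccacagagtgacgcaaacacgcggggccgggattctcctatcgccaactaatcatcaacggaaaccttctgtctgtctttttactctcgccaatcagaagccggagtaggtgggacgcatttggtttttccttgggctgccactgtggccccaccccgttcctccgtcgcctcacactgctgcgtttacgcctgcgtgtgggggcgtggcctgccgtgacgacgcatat
Amd1: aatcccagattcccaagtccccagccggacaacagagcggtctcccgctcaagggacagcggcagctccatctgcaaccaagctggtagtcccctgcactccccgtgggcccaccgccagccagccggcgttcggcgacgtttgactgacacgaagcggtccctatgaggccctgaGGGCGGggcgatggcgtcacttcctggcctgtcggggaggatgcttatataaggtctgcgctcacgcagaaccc
The Amd1 stretch holds 1 GC box and the Oaz1 stretch none. A promoter window was matched for 8 of the 10 genes. Besides the GC box, 4 motifs were searched on both strands: the E-box CACGTG, the hypoxia response core ACGTG (which is contained in CACGTG), the antioxidant response core TGACNNNGC and the C/EBP-ATF motif TGATGNAA. They occur in 7.15%, 19.6%, 12.4% and 3.97% of the 32851 windows. CACGTG was found in 1 of the windows of Sms, ACGTG in windows of Sms and Paox, TGACNNNGC in those of Oaz1 and Smox, and TGATGNAA in none. A match only says that these letters are present.

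Srm (ENSMUSG00000006442, chr4:148591503-148594993, plus strand) makes spermidine from putrescine. Its level was 40.4, 48.8, 44.1, 40.9 and 41.5 CPM in Fh1_fl_fl and 83.4, 73.8, 71.1, 73.2 and 80.2 CPM in clone1. In clone19 it was 109, 89.3, 96.0, 103 and 101.2 CPM, and in Rec 116, 137, 129.7, 115 and 109.8 CPM. The groups followed each other without overlap in the order Fh1_fl_fl, clone1, clone19, Rec, although the lowest Rec and the highest clone19 library were close. Srm rose by 0.83 (SE 0.07, adjusted p = 7.2e-11) in clone1, by 1.21 (SE 0.07, adjusted p = 4.6e-14) in clone19 and by 1.498 (SE 0.07, adjusted p = 5.5e-16) in Rec, on the log2 scale against Fh1_fl_fl. Rec exceeded clone1 by 0.67 (SE 0.07, adjusted p = 2.6e-09) and clone19 by 0.28 (SE 0.07, adjusted p = 0.00079).

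Sms (ENSMUSG00000071708, chrX:157443855-157492287, minus strand) makes spermine from spermidine and changed less. Its mean was 59.5 ± 4.29 CPM in Fh1_fl_fl, with clone1 at 44.8 ± 4.30, clone19 at 72.9 ± 13.3 and Rec at 72.0 ± 6.53 (SD, n = 5). The clone1 libraries, at 40.1 to 51.4 CPM, lay below all others, and clone19 was the most variable group, at 59.0 to 89.5 CPM. Against Fh1_fl_fl, Sms fell by 0.41 (SE 0.10, adjusted p = 0.00044) in clone1 and rose by 0.29 (SE 0.10, adjusted p = 0.0080) in clone19 and by 0.28 (SE 0.09, adjusted p = 0.011) in Rec, on the log2 scale. The last 2 calls depended on scaling: with library totals in place of TMM they were 0.16 (adjusted p = 0.113) and 0.14 (adjusted p = 0.158). The ratio of Srm to Sms counts was 0.638 to 0.887 in Fh1_fl_fl, with clone1 at 1.38 to 1.998, clone19 at 0.997 to 1.82 and Rec at 1.44 to 1.90, so the Fh1_fl_fl libraries lay below all others and the other groups overlapped.

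Sat1 (ENSMUSG00000025283, chrX:155213132-155216449, minus strand) acetylates spermidine and spermine, the first step of their breakdown or export. Its level was 189.6, 169, 214, 216 and 181 CPM in Fh1_fl_fl and 269.8, 217, 234, 215 and 202 CPM in clone1. In clone19 it was 142, 199.9, 180.3, 155 and 124 CPM, and in Rec 93.2, 109.9, 109, 111 and 104 CPM. Rec lay below every other library, while both clones overlapped Fh1_fl_fl. Sat1 fell by 0.88 (SE 0.10, adjusted p = 1.4e-08) in Rec against Fh1_fl_fl on the log2 scale, by 1.11 (SE 0.10, adjusted p = 1.2e-10) against clone1 and by 0.60 (SE 0.10, adjusted p = 7.0e-06) against clone19. The smaller differences of the clones from Fh1_fl_fl, 0.23 (SE 0.10, adjusted p = 0.037) in clone1 and -0.28 (SE 0.10, adjusted p = 0.015) in clone19, were not stable. In clone1 the call was lost with library totals (0.09, adjusted p = 0.389) and without Fh1_fl_fl replicate 2 or clone1 replicate 1 or 3, and in clone19 without Fh1_fl_fl replicate 3 or 4 or clone19 replicate 1 or 5.

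Smox (ENSMUSG00000027333, chr2:131491496-131525922, plus strand) oxidises spermine back to spermidine and releases hydrogen peroxide. It was at 41.2, 40.7, 39.8, 36.0 and 42.4 CPM in Fh1_fl_fl and at 33.4, 34.0, 32.1, 34.0 and 32.2 CPM in clone1. In clone19 it was at 55.2, 43.5, 55.4, 57.5 and 60.1 CPM and in Rec at 24.8, 26.0, 24.4, 21.9 and 23.9 CPM. No group overlapped another, and the clones lay on opposite sides of Fh1_fl_fl. Against Fh1_fl_fl, Smox fell by 0.27 (SE 0.07, adjusted p = 0.0017) in clone1 and by 0.72 (SE 0.08, adjusted p = 2.8e-09) in Rec and rose by 0.44 (SE 0.07, adjusted p = 5.8e-06) in clone19, on the log2 scale. Between clone1 and clone19 the difference was -0.71 (SE 0.08, adjusted p = 5.2e-09). No 50-base stretch of its longest coding transcript occurs in an annotated transcript of another gene. Shorter or inexact copies were not searched.

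Paox (ENSMUSG00000025464, chr7:140115799-140137224, plus strand) oxidises acetylated polyamines in the peroxisome and was the lowest of the 10 genes per kb of exon, at 1.26 ± 0.15 CPM per kb in Fh1_fl_fl. Its mean was 6.17 ± 0.75 CPM in Fh1_fl_fl, with clone1 at 12.9 ± 2.18, clone19 at 5.83 ± 1.22 and Rec at 5.58 ± 0.93 (SD, n = 5). All clone1 libraries, at 9.61 to 15.1 CPM, lay above all others, of which the highest was 7.37 CPM. Paox rose by 1.09 (SE 0.14, adjusted p = 4.8e-08) in clone1 on the log2 scale, and differed from Fh1_fl_fl by -0.04 (SE 0.16, adjusted p = 0.836) in clone19 and by -0.11 (SE 0.15, adjusted p = 0.521) in Rec. The ratio of Smox to Sat1 counts had means of 0.209 ± 0.032 in Fh1_fl_fl, with clone1 at 0.147 ± 0.016, clone19 at 0.354 ± 0.0998 and Rec at 0.231 ± 0.025. Only clone1, at 0.124 to 0.160, did not overlap any other group.

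**Figure D3:**
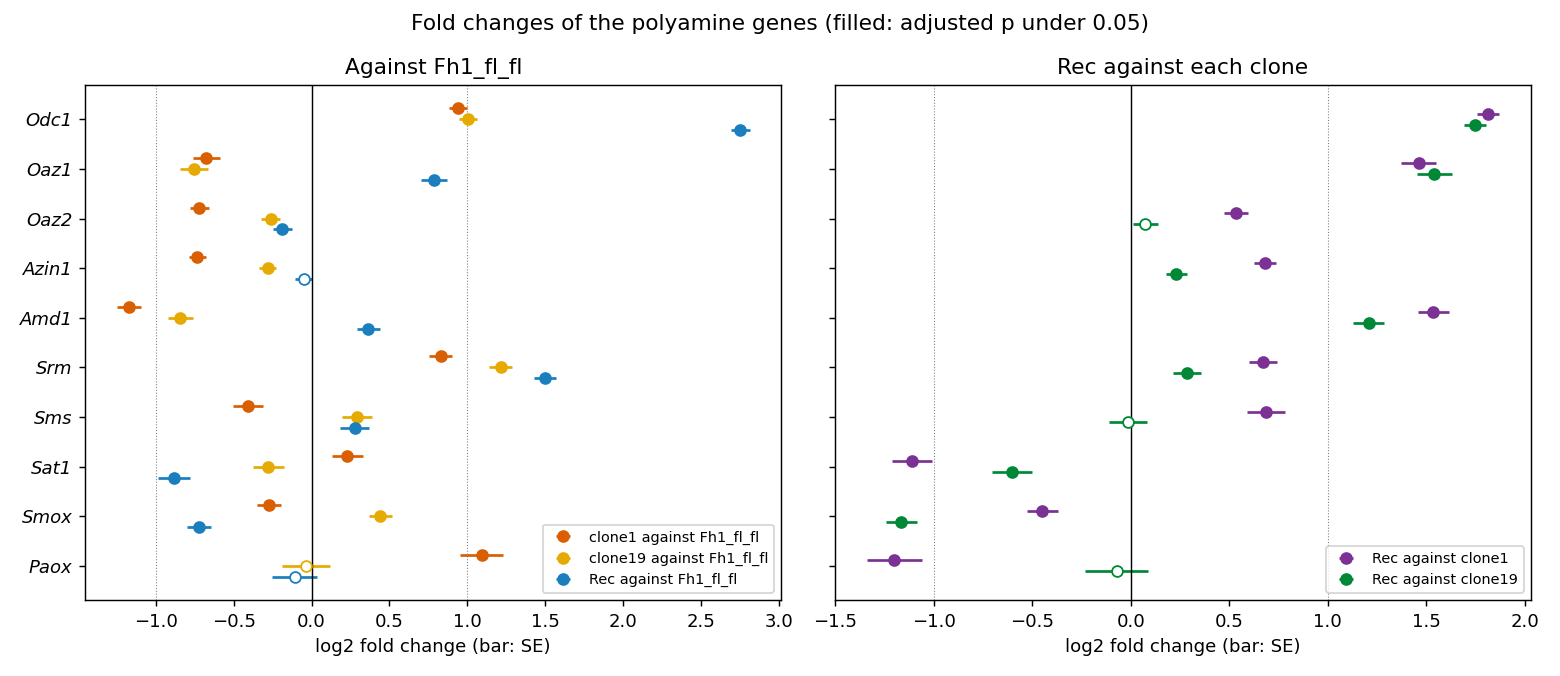
Log2 fold change (x axis; bars are SE) of the 10 polyamine genes against Fh1_fl_fl (left) and of Rec against each clone (right), from 1 edgeR model over 20 libraries. Filled points have an adjusted p under 0.05 and dotted lines mark a 2-fold change; Odc1 in Rec lies farthest out, at 2.75 against Fh1_fl_fl.

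Counted over the 10 genes, 4 rose and 6 fell in clone1 against Fh1_fl_fl, where 38% of all tested genes rose and 40.5% fell. In clone19, 4 rose and 5 fell, beside 36.8% and 36.1% of all genes, and Paox did not pass. In Rec against Fh1_fl_fl, 5 rose and 3 fell, beside 33.4% and 37.4%, and Azin1 and Paox did not pass. With so many genes called in every comparison, these shares are not a result about polyamine genes. The median log2 change of the 10 genes against Fh1_fl_fl was -0.34 in clone1, -0.15 in clone19 and 0.11 in Rec, beside -0.03, 0.00 and -0.03 over all tested genes. The 3 comparisons use the same 5 Fh1_fl_fl libraries.

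Against clone1, 7 of the 10 genes rose and 3 fell in Rec, beside 39.7% and 38.1% of all genes, with a median of 0.67 (0.01 over all genes). Against clone19, 5 rose and 2 fell, beside 35.8% and 38%, with a median of 0.15 (-0.02 over all genes). Between the clones, 2 genes were higher in clone1 (Sat1, Paox) and 6 lower (Oaz2, Azin1, Amd1, Srm, Sms, Smox), beside 31.6% and 33.5% of all genes, and Odc1 and Oaz1 did not pass.

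Few members passed a test for a change of more than 2-fold (edgeR's glmTreat). Against Fh1_fl_fl this was Amd1 (lower) in clone1, beside 21.7% of all genes, Srm (higher) in clone19, beside 15.5%, and Odc1 and Srm (both higher) in Rec, beside 11.1%. Odc1, Oaz1 and Amd1 passed it in Rec against clone1, beside 22% of all genes. In Rec against clone19 the same test was passed by Odc1, Oaz1, Amd1 (higher) and Smox (lower), beside 15.5%. Between the clones 0 of 10 passed, beside 9.58% of all genes, although 8 of 10 had an adjusted p under 0.05 without the 2-fold bound. The Amd1 call in clone1 (adjusted p = 0.023 against 2-fold) was near the threshold and was lost with RLE size factors, with only the 2 groups in the fit, or without any 1 of 10 libraries: Fh1_fl_fl replicate 3, 4 or 5, clone1 replicate 2 or 5, clone19 replicate 1 or 3, and Rec replicate 2, 4 or 5. The Smox call in Rec against clone19 (adjusted p = 0.034 against 2-fold) was lost with no low-count filter, with only the 2 groups in the fit, and without Rec replicate 3, 4 or 5 or clone19 replicate 1, 3, 4 or 5. Srm in clone19 was no longer over 2-fold with library totals.

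For 3 genes with the widest range of group means, the genes most alike were found by the root-mean-square difference in centred log2 CPM over the 4 group means, among 12670 others. For Oaz1 these were Wdr4 (0.02), Klhdc4 (0.04) and Pym1 (0.07). For Amd1 they were Cdk2ap1 (0.02), Gm10231 (0.03) and Zfp456 (0.04), the last 2 at under 3 CPM in every group. For Odc1 the nearest were less close: Hsd11b2 (0.20), which stayed at 0.12 to 1.25 CPM, Gja1 (0.23) and Card14 (0.25). Gja1, which encodes connexin 43, a gap junction protein, had means of 39.6 CPM in Fh1_fl_fl, with clone1 at 57.3, clone19 at 90.7 and Rec at 227.

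Around the pathway, 30 further genes were listed: those that supply ornithine, arginine and S-adenosylmethionine, salvage methylthioadenosine, form hypusine, transport polyamines, or belong to other breakdown steps and the Myc family. Of these, 25 were tested, and Agmat, Slc7a2, Mat1a, Oaz3 and Aoc1 had too few counts. Against Fh1_fl_fl, 12 rose and 8 fell in clone1, 8 rose and 11 fell in clone19, and 14 rose and 7 fell in Rec, which share their controls as before. Their medians were 0.15, 0.09 and 0.41 on the log2 scale. The shares of all genes called in these comparisons are those given for the polyamine genes.

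Of the genes for S-adenosylmethionine supply, Mat2a, the catalytic subunit of the synthetase found outside liver, had the same order as Amd1. The share of all tested genes with that order was not counted, and a link between Mat2a and Amd1 was not tested. Mat2a was at 252, 245, 278, 269 and 266 CPM in Fh1_fl_fl, at 44.9, 57.2, 56.2, 60.2 and 30.4 CPM in clone1, at 60.3, 105, 108, 80.4 and 71.0 CPM in clone19 and at 372, 382, 388, 398 and 325 CPM in Rec. It fell by 2.41 (SE 0.14, adjusted p = 1.5e-14) in clone1 and by 1.63 (SE 0.14, adjusted p = 4.1e-11) in clone19 and rose by 0.51 (SE 0.13, adjusted p = 0.0011) in Rec, on the log2 scale. Rec libraries lay above all others, and clone1 libraries lay below all others, the highest at 60.2 CPM and the lowest clone19 library at 60.3 CPM. Mat2b, its regulatory subunit, rose by 0.30 (SE 0.07) in clone1 and fell by 0.70 (SE 0.08) in clone19 and by 0.19 (SE 0.07) in Rec.

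Ornithine comes from arginase, whose 2 genes differed between the clones. Arg1 was at 3.40 ± 0.53 CPM in Fh1_fl_fl, with clone1 at 79.5 ± 3.34, clone19 at 0.39 ± 0.12 (2 to 4 counts per library) and Rec at 3.74 ± 1.095 (SD, n = 5). It rose by 4.55 (SE 0.12, adjusted p = 2.1e-22) in clone1 on the log2 scale and fell by 3.14 (SE 0.28, adjusted p = 1.3e-10) in clone19. Arg2, the mitochondrial form, was at 27.0 ± 3.22, 2.96 ± 0.70, 13.7 ± 3.02 and 11.5 ± 1.77 CPM in the same order, so its Fh1_fl_fl libraries lay above and its clone1 libraries below all others. Oat, ornithine aminotransferase, rose in clone1 (1.31, SE 0.06), clone19 (0.66, SE 0.06) and Rec (0.94, SE 0.06). Slc7a1, which imports arginine and ornithine, rose by 0.43, 0.79 and 0.66 in the same 3 groups (SE 0.10 each).

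Hypusine, a modified lysine made from spermidine, is found in the translation factor eIF5A, which Eif5a encodes, and is formed by Dhps and Dohh. Eif5a was at 670 ± 48.3 CPM in Fh1_fl_fl, with clone1 at 917 ± 66.9, clone19 at 835 ± 20.3 and Rec at 1479.8 ± 119.8 (SD, n = 5), and rose in all 3 groups, by 0.45, 0.32 and 1.14 on the log2 scale (SE 0.06 each). Dohh rose by 1.06 (SE 0.09, adjusted p = 2.9e-11) and Dhps by 0.37 (SE 0.08, adjusted p = 0.00018) in Rec. For Eif5a, Dohh and Dhps every Rec library lay above every other library. Of the 25 tested surrounding genes, 6 stood above in this way and 0 below, beside 11.8% and 10.3% of all tested genes. The rest of the 6 were Mat2a, Adi1 and Slc18b1. Eif5a2, a close relative of Eif5a, rose by 0.39 (SE 0.07) in clone1 and fell by 0.38 (SE 0.08) in clone19 and by 0.50 (SE 0.08) in Rec.

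Methylthioadenosine, the by-product of spermidine and spermine synthesis, is salvaged by Mtap, Mri1, Apip, Enoph1 and Adi1. Mtap was at 145 ± 6.51 CPM in Fh1_fl_fl, with clone1 at 237 ± 10.9, clone19 at 161 ± 8.55 and Rec at 226 ± 11.4. Adi1, an enzyme late in the salvage route, fell by 0.34 (SE 0.08) in clone1 and rose by 0.28 (SE 0.08) in clone19 and by 1.07 (SE 0.08, adjusted p = 5.5e-12) in Rec. Enoph1 rose by 0.59 (SE 0.07) in clone1, 0.61 (SE 0.07) in clone19 and 0.77 (SE 0.07) in Rec, while Apip fell by 0.34 (SE 0.13), 0.64 (SE 0.14) and 0.37 (SE 0.13).

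Among transport genes, Slc3a2, the heavy chain of several amino acid transporters, rose by 1.98 (SE 0.09) in clone1, 1.48 (SE 0.08) in clone19 and 1.58 (SE 0.08) in Rec. Atp13a2, a lysosomal polyamine exporter, fell by 1.02 (SE 0.11), 0.55 (SE 0.11) and 0.78 (SE 0.10) in the same order. Slc18b1, a vesicular polyamine transporter, was low throughout, at 1.32 ± 0.35 CPM in Fh1_fl_fl, with clone1 at 0.22 ± 0.22, clone19 at 0.25 ± 0.18 and Rec at 3.33 ± 0.62, and 1 or more libraries of each clone had 0 counts.

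Myc and Max encode factors known to act together on the Odc1 gene. Myc was at 120 ± 7.76 CPM in Fh1_fl_fl, with clone1 at 124 ± 9.74, clone19 at 168 ± 18.4 and Rec at 185 ± 6.00 (SD, n = 5), with a difference of 0.06 (SE 0.07, adjusted p = 0.460) in clone1 and increases of 0.49 (SE 0.07) in clone19 and 0.63 (SE 0.07) in Rec. Its group means had the order of those of Odc1. The Myc levels of Fh1_fl_fl and clone1 overlapped, as did those of clone19 and Rec. How many tested genes have this order was not counted, and a link of Myc or Max to the Odc1 level was not tested. Max fell by 0.87 (SE 0.06) in clone1 and by 0.48 (SE 0.06) in clone19, and differed by -0.10 (SE 0.06, adjusted p = 0.159) in Rec. Mycn, at 4.11 to 11.8 CPM by group mean, rose in clone1 (0.85, SE 0.13) and Rec (0.64, SE 0.12) and fell in clone19 (-0.63, SE 0.15).

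**Figure D4:**
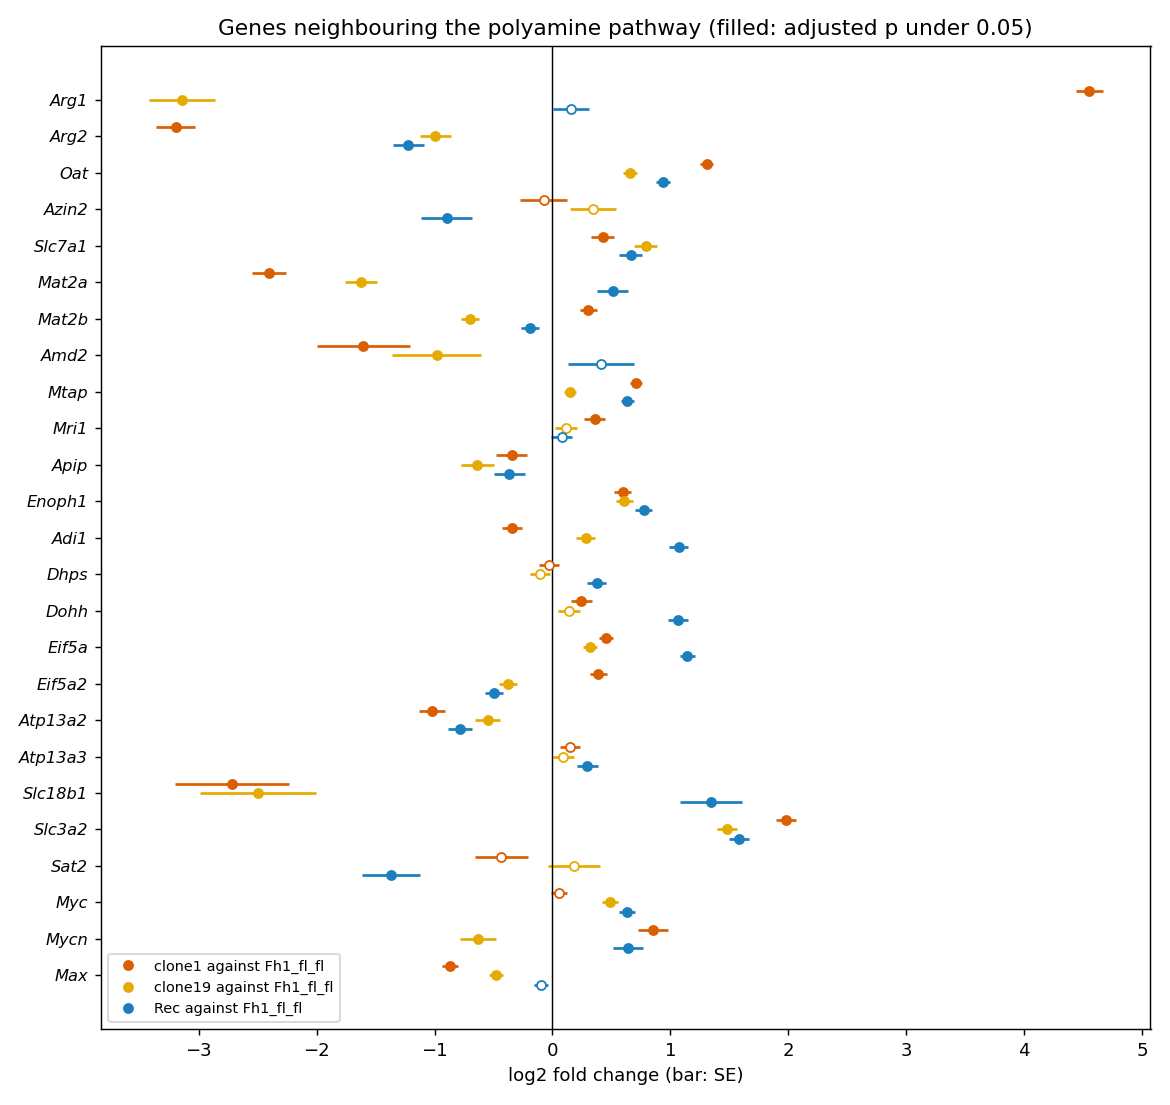
Log2 fold change against Fh1_fl_fl (x axis; bars are SE) of the 25 tested genes around the polyamine pathway in clone1, clone19 and Rec. Filled points have an adjusted p under 0.05; Arg1 lies at 4.55 in clone1 and -3.14 in clone19, and Mat2a below 0 in both clones and above 0 in Rec.

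Against clone1, 12 of the 25 rose and 8 fell in Rec, beside 39.7% and 38.1% of all genes. Against clone19, 15 rose and 2 fell, beside 35.8% and 38%. The medians were 0.18 and 0.28 on the log2 scale. Mat2a was 2.91 (SE 0.14) above clone1 and 2.14 (SE 0.14) above clone19. Between the clones, 8 were higher in clone1 and 8 lower, beside 31.6% and 33.5% of all genes. Arg1 differed most, by 7.70 (SE 0.18, adjusted p = 3.3e-22).

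Several of the 10 genes share stretches of sequence with other genes, so reads aligning to more than 1 place may be missing from their counts. The share of 50-base stretches found in another gene's transcripts was 42.2% for Odc1 (pseudogenes), 52.2% for Oaz1 (its pseudogene Oaz1-ps), 28.7% for Sms, 28.9% for Paox, 12% for Oaz2, and at most 7.28% for Azin1, Srm, Sat1 and Smox. Their counts, and above all that of Amd1, carry this uncertainty. Azin1 also overlaps the antisense gene Gm49077 over 358 exon bases and Paox overlaps Echs1 on the opposite strand over 142, and Oaz1 overlaps the microRNA gene Mir1982 on the same strand over 74. Since the strand setting of the counting is not given, reads of the genes on opposite strands cannot be told apart, and for Oaz1 and Mir1982 no strand setting could separate them.

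**Figure D5:**
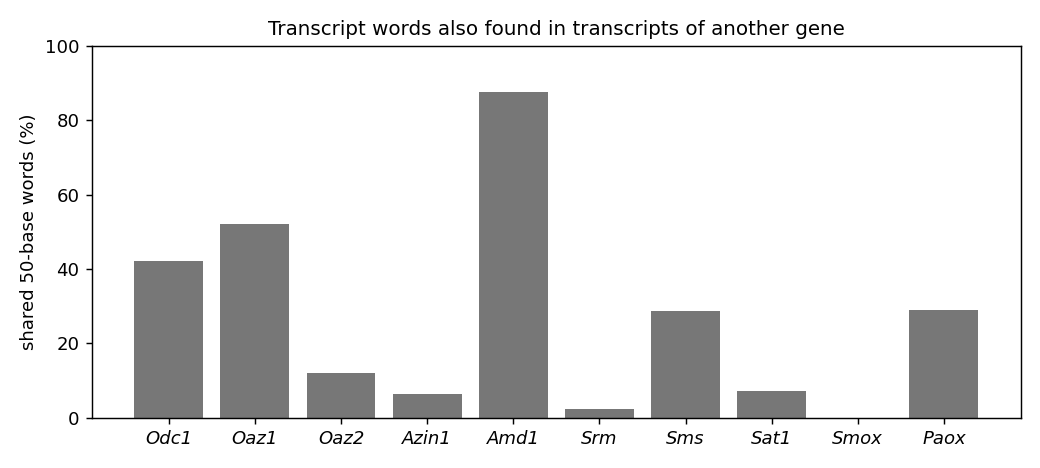
Share of the 50-base stretches of each gene's longest coding transcript (y axis, percent, from 0 to 100) that also occur in GENCODE M21 transcripts of another gene. Amd1 stands highest at 87.6% and Smox is at 0.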

How the data were processed

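RNA sequencing of 20 libraries, 5 in each of 4 groups taken from the titles and genotype labels, was analysed. The authors deposited counts: whole-number reads per Ensembl gene for each library, not normalized, followed by lines that tally unassigned reads. TopHat2 2.0.4, HTSeq 0.5.3p9, DESeq 1.10.1 and the build GRCm38 are named, without their roles, per the submitters' processing notes. Annotation release, strand setting and read length were not given in the sources used here. The lines of unassigned reads entered neither library sizes nor tests. Of a library's whole tally (gene counts plus these lines), 28.8 to 40.3% was not uniquely aligned, 3.28 to 6.73% outside any feature and 0.462 to 0.653% ambiguous. A read with several alignments may have been tallied repeatedly. Totals of gene counts ran from 5988447 to 18972176, so the upper limit for a gene with 0 counts (3 counts) equals 0.147 to 0.524 CPM. This covers counting error only.

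The polyamine genes and the lists of surrounding and marker genes were chosen with earlier results of these data known. All 10 genes are described, any of the 30 listed surrounding genes may be named, and for the 3 members with the widest range of group means the 3 most similar genes are named. The tests were run with edgeR 4.0.16 in R 4.3.3: filterByExpr kept 12671 genes and left out 26508, libraries were scaled by TMM, and all 20 libraries entered 1 quasi-likelihood fit with 4 group means (common biological coefficient of variation 9.02%). Rose, fell and changed mean a Benjamini-Hochberg adjusted p under 0.05 over all tested genes, and over 2-fold means the same for glmTreat with a log2 bound of 1. CPM is the count relative to the TMM-scaled library total. Tested on simulated data for clone1 against Fh1_fl_fl over 12671 genes, the model recovered 74 of 100 genes changed 1.5-fold and 89 of 100 changed 2-fold, with 8 false calls. In the simulation only these genes were changed, and all other levels were set to the Fh1_fl_fl means. In the real comparison 9954 genes were called, so the simulation does not check scaling or false calls when most genes differ. No libraries of a group were identical: chi-square per degree of freedom between replicates was 2.08 to 20.7, and 66.4 to 98.6 in pairs with clone19 replicate 3. Symbols, coordinates and transcripts came from GENCODE M21, promoters from RefSeq. Alternatives were RLE size factors, library totals, no low-count filter, DESeq2 1.42.0, 2-group fits, a replicate block and leaving out each library. Summing Amd1 and Amd2 was added after seeing the data.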

Additional observations from a re-analysis of the deposited data

Results flagged for a closer look

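Of 40 groups of 5 libraries (10 genes in 4 groups), 4 held a library far from the other 4 of its group, where chance alone marks about 1 in 20. In clone1 replicate 1, Odc1 was at 211 CPM, above 176 to 185 CPM in the other 4, and Oaz1 was at 118 CPM, above 79.0 to 89.5 CPM. Azin1 was at 343 CPM in clone19 replicate 2, above 295 to 309 CPM. Paox was at 3.67 CPM in clone19 replicate 3, the library rich in Gm42418, below 6.10 to 6.54 CPM.

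For 8 of the 10 genes, the change against Fh1_fl_fl differed between the 2 clones by edgeR's test of clone1 against clone19, in which the shared controls cancel. In that comparison 8247 of all 12671 tested genes were called, so 8 of 10 is not a result about polyamine genes. The clone1 change minus the clone19 change, on the log2 scale, was -0.46 for Oaz2, -0.45 for Azin1, -0.33 for Amd1, -0.38 for Srm, -0.70 for Sms and -0.71 for Smox. It was 0.51 for Sat1 and 1.13 for Paox. Each clone is 1 line, so a difference between them cannot be told apart from one between any 2 clones.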

How the results depend on the processing

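Of 60 fold changes (10 genes in 6 comparisons), 55 kept their side of the threshold in all other fits (26, or 27 for Amd1) and 5 did not. No called value changed sign; Paox in clone19 against Fh1_fl_fl (-0.04, from -0.16 to 0.07) and Sms in Rec against clone19 (-0.02, from -0.09 to 0.07), which were not called, did. The 5 were Sat1 in clone1 (lost with library totals, and at 0.18 to 0.22 without the libraries named above) and in clone19 (lost at -0.20 to -0.23 without those named above), Sms in clone19 and Rec (0.16 and 0.14, lost with library totals), and Azin1 in Rec against Fh1_fl_fl, which fell by 0.18 (adjusted p = 0.0103) with library totals. The count of the 10 genes changed over 2-fold in clone1 against Fh1_fl_fl went from 1 to 0 with RLE size factors and with only the 2 groups in the fit, and was 0 to 1 over the fits that leave out a library. In clone19 it went from 1 to 0 with library totals. The causes were not tested. Library totals moved the median log2 change of all genes against Fh1_fl_fl to -0.17 in clone1 and -0.12 in clone19, and the share of called genes that were higher from 48.4 to 40.1% in clone1, 50.5 to 40.7% in clone19 and 47.2 to 36.6% in Rec. The 10 genes then split into 3 higher and 6 lower, 3 and 5, and 4 and 4.

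The replicate numbers gave no clear sign of pairing the libraries. Deviations of same-numbered libraries correlated at -0.197 to 0.163 in 30 pairs, beside -0.197 to 0.359 in 120 pairs of different number. Of 20 libraries, 2 correlated best with their own number. Weak correlations cannot show that no pairing exists. With the replicate number as a block, 10, 9 and 8 of the 10 genes were called in clone1, clone19 and Rec against Fh1_fl_fl, as without it, and 7 of 10 in Rec against clone19.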
